A study of Mus musculus with 25 samples.

Results

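The 8 genes described here were grouped as effector lineage transcription factors of CD8+ T cells: Runx1, Runx3, Tbx21, Eomes, Id2, Zeb2, Prdm1 and Nfil3. They are 8 of 21631 protein-coding genes of the mouse annotation (GRCm38.p6). The values of each gene were all pairs of 1 kb genome bins with an anchor bin overlapping its annotated span extended by 5 kb on each side, its window. The windows held 394 of the 121571 bin pairs listed in any library and 71 of the 28033 pairs listed in all 6 libraries, called shared loops below. All 8 genes had at least 1 listed pair, and 4 of them (Tbx21, Runx3, Runx1 and Zeb2) had a shared loop, so that their contacts could be compared between libraries.

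The data were 6 H3K27ac HiChIP libraries of CD8+ T cells from the spleen of C57BL/6J mice. In HiChIP, DNA ends that lie near each other in the nucleus are ligated, fragments carrying a chosen chromatin mark (here H3K27ac, found at active promoters and enhancers) are pulled down, and read pairs joining 2 bins are counted as contacts. There was 1 library for each of 3 genotypes and each of 2 treatments, control (pre-activated, not treated) or IL-2. The genotypes were wild type (WT) and CRISPR mutants labelled Intron and Upstream, called the intron deletion and the upstream deletion here, in a study of the super-enhancer of Il2ra, the gene for the alpha chain of the IL-2 receptor. All groups were stimulated with IL-2 or anti-CD3 and anti-CD28 over 2 days and then kept 4 h at rest before treatment. The sources used here do not give the coordinates of the deletions, the number of lines or animals, or the IL-2 dose and time of these libraries. With 1 library per group, p-values rest on how the IL-2 change varied between genotypes, pooled over features, and not on a spread between like libraries. Both deletions were compared with the same WT libraries. In bulk cells, fewer cells with an active site and less signal per cell cannot be told apart.

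T-bet (Tbx21) and Eomes are T-box factors that switch on cytotoxic and interferon gamma genes, and Zeb2, a zinc finger repressor, works with T-bet in terminally differentiating effector cells. Runx3 sets the cytotoxic lineage in the thymus and stays active in effector and tissue-resident cells, while its relative Runx1 acts earlier in T cell development. Id2 has no DNA-binding domain and holds E proteins in inactive dimers. Blimp-1 (Prdm1) represses memory genes, and Nfil3 is a leucine zipper factor best known for its need in NK cells. Of these factors, T-bet, Zeb2, Id2 and Blimp-1 oppose a naive and memory programme led by Tcf7, Bach2 and Foxo1.

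Total listed contacts ranged from 1314137 in the intron deletion control library to 3596995 in the WT IL-2 library, and no listed pair had fewer than 20 contacts. This total rises with the number of listed pairs by definition and is no separate measure of sequencing depth. In the shared loops alone, the same libraries were lowest and highest (1051111 and 1690275 contacts), as they were in listed pairs (38879 and 94922). All 10 T cell markers examined, Cd8a and Cd8b1 among them, had listed pairs, which held 18980 and 18210 contacts per 1000000 listed in the intron deletion libraries (control and IL-2) and 12080 to 13880 in the other 4. Of 5 NK cell markers, Ncr1, Klra8 and Klra4 had no listed pair, and Klrb1c and Klre1 together held 54.79 to 61.99 contacts per 1000000 in the intron deletion libraries and 81.92 to 104.4 in the other 4. Of the B cell markers, Ms4a1, Pax5, Ebf1 and Blnk had none, and Cd79a and Cd79b together held 2033 and 1561 contacts per 1000000 in the intron deletion control and IL-2 libraries and 937.2 to 1404 in the other 4. Of 5 markers of CD4+ or regulatory T cells, only Cd40lg had none, and the list held 81.92 to 136.5 contacts per 1000000. Of 7 myeloid markers, Lyz2, Csf1r, Itgam and Cebpa had none, and the list held 589.2 to 868.2, and of 4 erythroid markers only Klf1 had a pair, with 0 to 20.85. The T, NK and B cell levels thus did not overlap between the intron deletion and the other libraries, in sums over listed pairs only. The NK cell sums rested on few pairs, 3 and 5 in the intron deletion libraries (control and IL-2) and 5 to 11 in the other 4. How often other gene lists had such a gap was not counted. Against WT, 2 of the 10 T cell windows passed an edgeR adjusted p of 0.05 in contacts, as higher. They were Cd8a (log2 change 0.56) and Cd8b1 (0.45), and the median of the 10 was 0.0955. Of all windows 9.51% passed as higher. The 1 B cell window measured, Cd79a, also passed (0.39).

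The genes differed widely in how many contacts were listed. Tbx21 had 195 listed pairs over the 6 libraries, or 6.96 per kb of window, and 154 protein-coding genes had more per kb. Runx3 had 119 pairs (1.75 per kb), Id2 19 (1.36 per kb) and Nfil3 28 (1.08 per kb), against a median of 0.219 per kb over the 8311 genes with any listed pair. Runx1 with 17 pairs (0.072 per kb), Zeb2 with 12 (0.0828 per kb), Eomes with 3 (0.158 per kb) and Prdm1 with 1 (0.0098 per kb) lay below that median.

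**Figure D1:**
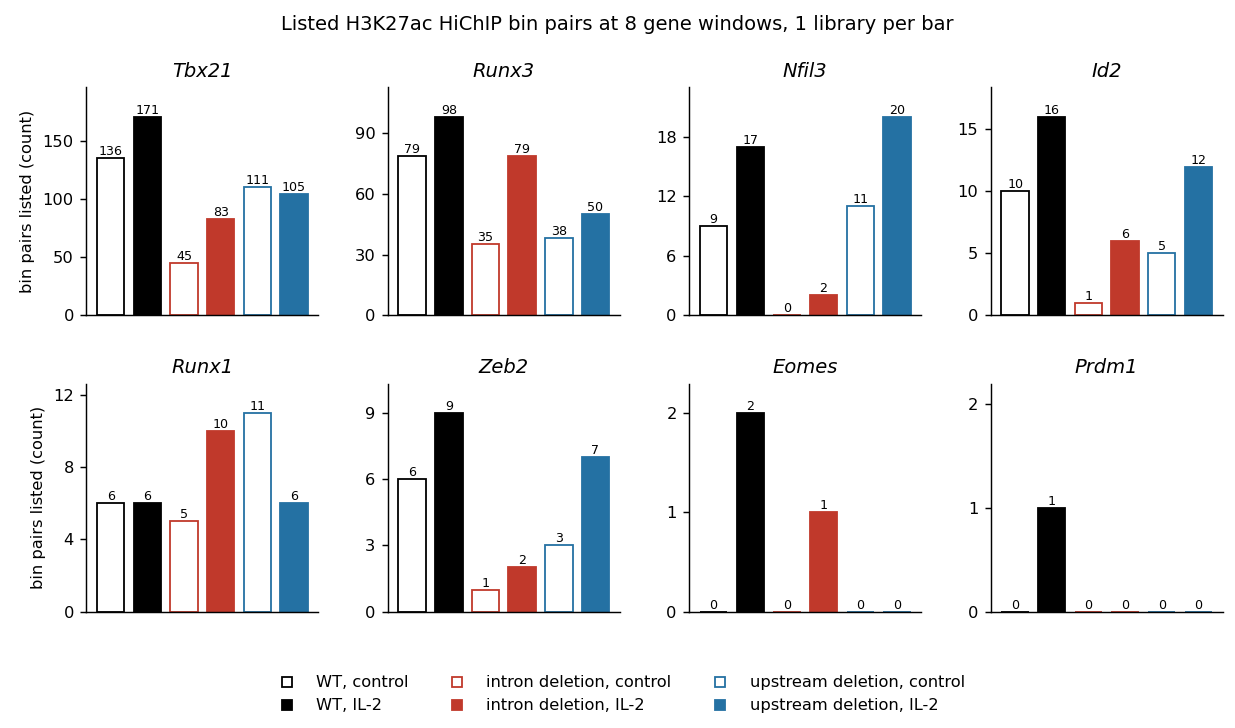
Number of bin pairs listed at each of the 8 gene windows in each library (bars, 1 library each, open for control and filled for IL-2, with the count above; the vertical axes differ between panels and start at 0). Tbx21 had 45 to 171 pairs per library, Prdm1 had 1 pair in 1 library, and Nfil3 had 0 and 2 pairs in the intron deletion libraries against 9 to 20 in the other 4.

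The start sites of Tbx21, Runx3 and Runx1 are shown first, because their bins or the bins next to them carried most of the contacts described below, and because Runx3 and Runx1 each have a distal and a proximal start that differed in listing. The sequences are the 250 bases before each annotated start, 5′ to 3′ on the strand of the gene, from RefSeq on GRCm38.p6, at chr11:97115332-97115581 (minus strand, Tbx21), chr4:135120395-135120644 and chr4:135152295-135152544 (plus strand, Runx3 distal and proximal) and chr16:92826075-92826324 and chr16:92697330-92697579 (minus strand, Runx1 distal and proximal). Capitals mark matches to the RUNX motif TGTGGT (written ACCACA on the other strand) and to the E-box CAGGTG, a sequence that ZEB factors and E proteins bind.
Tbx21: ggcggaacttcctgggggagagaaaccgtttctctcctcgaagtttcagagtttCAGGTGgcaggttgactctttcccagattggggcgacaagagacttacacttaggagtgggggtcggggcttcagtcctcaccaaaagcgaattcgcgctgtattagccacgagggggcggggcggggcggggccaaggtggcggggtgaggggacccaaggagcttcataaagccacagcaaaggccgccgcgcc
Runx3 distal: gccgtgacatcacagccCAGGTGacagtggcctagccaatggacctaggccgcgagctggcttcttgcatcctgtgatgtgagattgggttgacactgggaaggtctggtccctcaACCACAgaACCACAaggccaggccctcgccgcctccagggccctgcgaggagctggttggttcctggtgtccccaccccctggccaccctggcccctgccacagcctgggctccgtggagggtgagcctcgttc
Runx3 proximal: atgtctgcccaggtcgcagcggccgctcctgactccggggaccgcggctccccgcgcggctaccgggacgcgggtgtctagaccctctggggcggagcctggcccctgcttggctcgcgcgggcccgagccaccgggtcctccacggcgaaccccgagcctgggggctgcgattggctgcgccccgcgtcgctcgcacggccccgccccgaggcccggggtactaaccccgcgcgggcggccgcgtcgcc
Runx1 distal: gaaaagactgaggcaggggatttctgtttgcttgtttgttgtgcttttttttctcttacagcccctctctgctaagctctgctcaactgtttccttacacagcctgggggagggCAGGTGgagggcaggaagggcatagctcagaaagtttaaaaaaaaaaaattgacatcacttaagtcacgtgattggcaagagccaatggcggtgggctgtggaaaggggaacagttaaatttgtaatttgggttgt
Runx1 proximal: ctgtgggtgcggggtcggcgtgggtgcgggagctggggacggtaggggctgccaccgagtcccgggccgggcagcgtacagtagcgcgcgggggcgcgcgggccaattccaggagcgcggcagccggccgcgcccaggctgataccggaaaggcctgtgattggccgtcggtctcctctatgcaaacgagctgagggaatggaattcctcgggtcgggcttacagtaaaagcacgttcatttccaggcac

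Motifs were searched on both strands in the 250 bases before each of 13 annotated starts of the 8 genes. TGTGGT was present at 1 of the 13, the distal start of Runx3, which had 2 matches separated by a pair of bases, and at 14% of 32526 promoters of the annotation. CAGGTG was present at 4 of the 13 (Tbx21, Prdm1 and the distal starts of Runx3 and Runx1) and at 17.3% of promoters. The STAT motif TTCNNNGAA was present at 2 overlapping starts of Zeb2 and at 7.04% of promoters, and the T-box motif AGGTGTGA at none of the 13 and at 1.13% of promoters. The proximal starts were richer in G and C than the distal ones, with 78.8% against 65.2% for Runx3 and 67.6% against 45.6% for Runx1 (median of all promoters 52.4%). These matches describe the sequence and were not tied to any bound factor.

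Tbx21 had the most listed pairs of the 8 genes, and its summed contacts were lower in the intron deletion than in WT. It spans 97098007 to 97115331 on chromosome 11, and 171 pairs were listed in the WT IL-2 library, 136 in WT control, 111 and 105 in the upstream deletion (control and IL-2), and 83 and 45 in intron-deletion cells (IL-2 and control). Nearly all contacts led upstream of the gene: 166 of the 195 pairs had their partner beyond the upstream edge of the window, 28 had both anchors inside it, and 1 led downstream. The bin with the most partners, 97114001 to 97115000, lies 1 kb inside the gene next to the start bin and was paired with 44 bins in WT control, 45 in WT IL-2, 29 and 33 in intron-deletion cells, and 41 and 37 in upstream-deletion cells (control, then IL-2). The start bin itself, whose sequence is given above, had 21 and 24 partners in WT cells, 3 and 15 in intron-deletion cells, and 18 and 16 in upstream-deletion cells.

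The strongest shared loop of Tbx21 joined 97114001 with the bin at 97126001, 11 kb upstream of the start, where no annotated gene lies. It had 98 contacts in WT control, 110 in WT IL-2, 54 in intron deletion control, 100 in intron deletion IL-2, 90 in upstream deletion control and 73 in upstream deletion IL-2. The longest shared loop reached 73 kb, from the same bin to Kpnb1, the gene for importin beta, with 35, 43, 23, 35, 26 and 31 contacts in that order of libraries. A further 64 pairs, 12 of them shared, led into Tbkbp1, the next gene upstream, which encodes a binding partner of the kinase TBK1.

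Summed over the 42 shared loops and scaled for depth, Tbx21 had 1570 CPM of contacts in WT control and 1481 in WT IL-2, 1214 and 1228 in intron-deletion cells, and 1799 and 1552 in upstream-deletion cells (control, then IL-2). Both intron deletion libraries were thus below all others, and the upstream deletion control library was the highest. The share of all windows with such a gap between genotypes was not counted, here or for the genes below. CPM is the count in shared loops scaled to the library's total in shared loops, with TMM factors from edgeR. The 42 shared loops were nearly all of the 45 pairs listed in intron deletion control but a minor part of the 171 in WT IL-2. These values thus cover only loops that reached the listing limit in intron deletion control. Against WT, the log2 change in the intron deletion was -0.32 (SE 0.07, 0.802-fold, edgeR quasi-likelihood adjusted p 0.00921). Of all 3522 gene windows tested in that comparison, 17.7% passed the threshold of 0.05 and 8.18% passed as lower, and among the 4 genes measured here Tbx21 alone passed. The call was lost without the WT control library (adjusted p 0.121), without the WT IL-2 library (0.209), and when all listed pairs were summed with unlisted ones set to 19 contacts (log2 change -0.28, adjusted p 0.0584) or to 0 (-0.68, 0.0503, with the median of all windows at -0.17). In sums over listed pairs, the NK cell markers were also lowest in the intron deletion libraries (54.79 and 61.99 contacts per 1000000 listed). These NK cell values rested on 3 and 5 listed pairs in those libraries. The T and B cell markers were highest there (18980 and 18210, and 2033 and 1561). The 1 NK cell window measured changed by -0.217 in contacts, not past the threshold, and by -0.00543 in coverage. The part of these markers in this result and in those for Zeb2, Id2 and Nfil3 was not tested. Over 13 alternatives, 6 of them fits without 1 library, the log2 change of Tbx21 ran from -0.68 to -0.24 and the sign did not change.

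Coverage, the read count of a bin, was also lower at Tbx21 in both intron deletion libraries than in the other 4. Scaled in the same way over its 11 shared bins, it was 548 CPM of coverage in WT control and 503.1 in WT IL-2, 398.6 and 391.8 in intron-deletion cells, and 598.7 and 520.5 in upstream-deletion cells (control, then IL-2). The log2 change against WT was -0.41 (SE 0.05, edgeR adjusted p 0.00433), and all 11 alternatives kept the call (log2 change -0.48 to -0.34). Of all 4371 coverage windows in that comparison, 40.2% passed the threshold and 19.4% passed as lower. Coverage was read from the same libraries and is no independent measure of the contacts. At the bin with the most partners, scaled coverage was 171 and 152.4 CPM of coverage in WT cells, 129.6 and 126 in intron-deletion cells, and 202.7 and 164 in upstream-deletion cells.

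**Figure D2:**
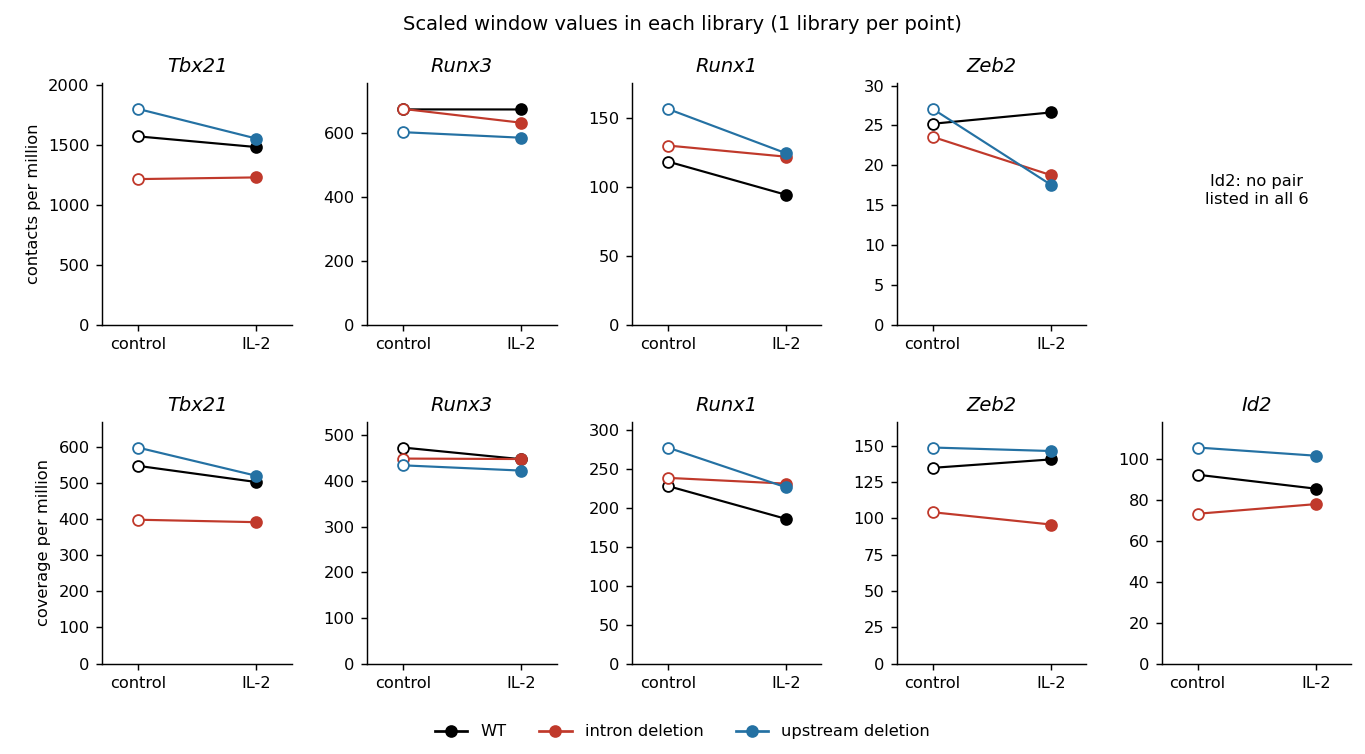
Scaled contacts in shared loops (CPM, upper row) and scaled coverage in shared bins (CPM, lower row) of the measured genes, by treatment (horizontal axis) and genotype (colour), with 1 library per point and lines joining the libraries of a genotype; vertical axes start at 0 and differ between panels. The intron deletion libraries of Tbx21 lie at 1214 and 1228 CPM of contacts, below the other 4, whereas those of Runx3 lie within 633.5 to 676.9, close to WT at 675.

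The lower level was spread over the Tbx21 loops. Of the 42 shared loops, 38 had a fitted change below 0 in the intron deletion, with a median log2 change of -0.376 and a range from -0.911 to 0.292, against a median of -0.00943 over all 28033 shared loops. In 29 of the 42 loops (69%) both intron deletion libraries were below both WT libraries, which held for 24.7% of all shared loops. Loops that share a bin are not independent. The 7 loops within the window had a median of -0.221, the 35 reaching upstream -0.394, and the 12 into Tbkbp1 -0.47.

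Single loops past the threshold numbered 3 of 42, all lower in the intron deletion, where 11.3% of all shared loops passed, 5.03% as lower and 6.27% as higher. The loop from 97113001 to 97128001, 13 kb upstream of the start, had 69 contacts in WT control, 74 in WT IL-2, 25 and 37 in intron-deletion cells, and 68 and 51 in upstream-deletion cells (log2 change -0.91, SE 0.23, adjusted p 0.00255). The loop from 97120001 to the same bin had 46 and 55 contacts in WT cells, 22 and 24 in intron-deletion cells, and 34 and 38 in upstream-deletion cells (log2 change -0.85, adjusted p 0.0151). The loop from 97114001 to 97145001 in Tbkbp1 had 78 and 82 contacts in WT cells, 25 and 57 in intron-deletion cells, and 78 and 50 in upstream-deletion cells (log2 change -0.68, adjusted p 0.0179). The bin at 97128001 was an anchor of the 2 loops with the lowest fitted changes. DESeq2 called neither of the 2 it could adjust (0.338 and 0.577). The call of the first loop was lost without WT IL-2 (0.183), that of the second without WT control (0.0714), WT IL-2 (0.254) or intron deletion IL-2 (0.44), and that of the third without WT control (0.163), WT IL-2 (0.264) or intron deletion control (0.582), over ranges of the adjusted p from 0.0026 to 0.338, 0.0153 to 0.44 and 0.00161 to 0.582. The change of the third loop was -0.24 without intron deletion control and -1.31 without intron deletion IL-2.

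**Figure D3:**
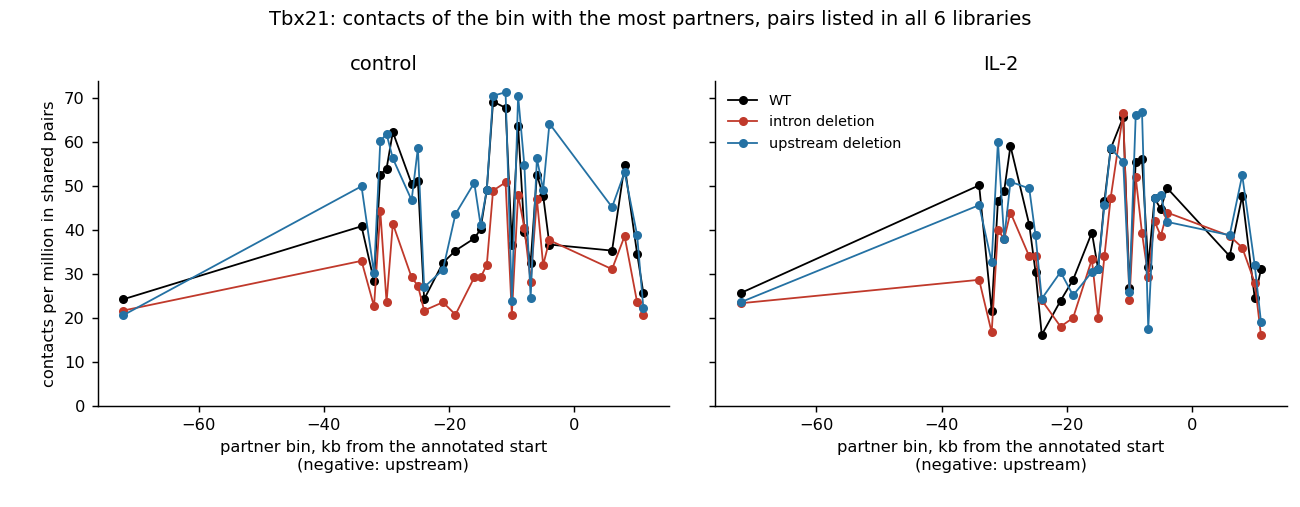
Scaled contacts (CPM) between the Tbx21 bin with the most partners and each partner bin in shared loops, by the partner's distance from the annotated start in kb (left panel control, right panel IL-2; 1 library per line, lines only join the points). In control, the intron deletion line lies under the WT line at most partners from 34 kb upstream to 11 kb inside the gene. With IL-2 it lies above the WT line at the partners 11, 24 and 25 kb upstream and 6 and 10 kb inside the gene.

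Tbkbp1, whose window shared 14 of its 73 shared loops with Tbx21, had 2735 and 2615 CPM of contacts in WT cells, 2119 and 1984 in intron-deletion cells, and 2896 and 2661 in upstream-deletion cells (control, then IL-2). Its log2 change in the intron deletion was -0.38 (SE 0.06, adjusted p 0.00157). Kpnb1, measured by 1 loop, changed by -0.11 (adjusted p 0.791) in contacts and by -0.23 (adjusted p 0.0328) in coverage. Among windows that shared no loop with Tbx21, the level over the 6 libraries was most like that of Pebp4 (Pearson r of log2 scaled contacts 0.989) and Rftn1 (0.984, from 1 loop), a likeness that is a description over 6 libraries.

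Tbx21 did not pass the threshold in the other comparisons. In the upstream deletion the log2 change was 0.13 (SE 0.07, adjusted p 0.463), where 7 of 3522 windows or 0.199% passed. With IL-2 it was -0.10 (SE 0.06, adjusted p 0.346), where 3.21% of windows passed. The ratio of its scaled contacts with IL-2 to control was 0.943 in WT, 0.863 in the upstream deletion and 1.01 in the intron deletion, and the difference of the intron deletion from the other genotypes was 0.16 on the log2 scale (SE 0.08, adjusted p 0.373), where 2.75% of windows passed. Leaving out either intron deletion library brought the IL-2 change past the threshold (log2 change -0.13, adjusted p 0.0371, without the control library; -0.15, adjusted p 0.0331, without the IL-2 library), when 842 and 774 of the 3522 windows passed, over a range of the adjusted p from 0.0331 to 0.922. Of the 42 loops, 31 lay below 0 with IL-2 (median -0.0439) and 31 above 0 in the upstream deletion (median 0.075), with none past the threshold in either by edgeR, where 3.3% and 0.0785% of all shared loops passed.

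Runx3, the factor of the cytotoxic lineage, had contacts centred on its distal start. It spans 135120645 to 135177990 on chromosome 4. It had 79 listed pairs in WT control, 98 in WT IL-2, 35 and 79 in intron-deletion cells, and 38 and 50 in upstream-deletion cells (control, then IL-2). Of its 119 pairs, 98 led beyond the upstream edge of the window, 21 lay within it and none led downstream. The bin with the most partners, 135121001 to 135122000, lies 1 kb inside the gene from the distal start and had 35 and 36 partners in WT cells, 15 and 31 in intron-deletion cells, and 21 and 29 in upstream-deletion cells. The bin of the distal start had 9, 17, 5, 13, 6 and 7 partners in the same order of libraries.

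The proximal start, 32 kb further into the gene and the richer in G and C of the sequences above, was an anchor of 1 pair in all. That pair joined it to the bin with the most partners and had 22 contacts in WT IL-2, 23 in upstream deletion control and 20 in upstream deletion IL-2, and it was not listed in the other 3 libraries. A pair that is not listed has an unknown count, so its absence shows no difference.

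The strongest shared loop of Runx3 joined the bin 6 kb upstream of the distal start (135114001) with the bin at 135121001. It had 75 contacts in WT control, 94 in WT IL-2, 58 and 79 in intron-deletion cells, and 63 and 55 in upstream-deletion cells. The next by scaled contacts, 44 kb long, joined 135121001 with 135077001, 43 kb upstream, and had 51, 91, 60, 82, 43 and 74 contacts in that order. The longest, of 47 kb, ended at 135074001 and had 53, 52, 38, 53, 27 and 30. Upstream partners thus lay in groups about 5 to 7 kb, 17 to 23 kb and 41 to 46 kb from the start, with 1 more at 35 kb, and no annotated gene lies in these bins.

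Over its 23 shared loops Runx3 had 675.2 and 675.0 CPM of contacts in WT cells, 676.9 and 633.5 in intron-deletion cells, and 603.9 and 586.5 in upstream-deletion cells (control, then IL-2). The WT values were nearly equal, and both upstream deletion libraries were below the other 4. None of the changes passed the threshold: -0.05 (SE 0.07, adjusted p 0.673) in the intron deletion, -0.18 (SE 0.07, adjusted p 0.3, unadjusted p 0.018) in the upstream deletion and -0.04 (SE 0.05, adjusted p 0.674) with IL-2. In the upstream deletion 20 of the 23 loops lay below 0, with a median log2 change of -0.248, and in 12 of 23 (52.2%) both upstream deletion libraries were below both WT libraries, against 16.5% of all shared loops. Leaving out the intron deletion control library brought the upstream deletion change past the threshold (-0.19, adjusted p 0.029), when 251 of 3522 windows passed, over a range of the adjusted p from 0.029 to 0.999. No single Runx3 loop passed in any comparison. Coverage over 8 shared bins was 473.3 and 447.7 CPM of coverage in WT cells, 449.1 and 448.1 in intron-deletion cells, and 434.3 and 422.8 in upstream-deletion cells, with no change past the threshold by edgeR or DESeq2.

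**Figure D4:**
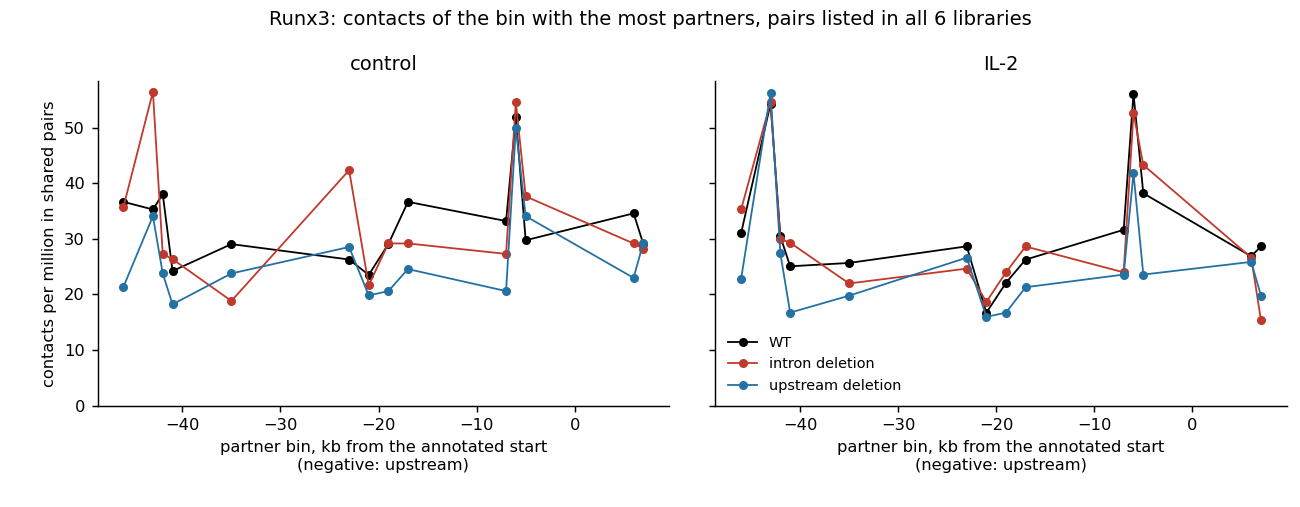
Scaled contacts (CPM) between the Runx3 bin with the most partners and each partner bin in shared loops, by the partner's distance in kb from the distal start (left panel control, right panel IL-2; 1 library per line, lines only join the points). The highest points stand at the partners 43 kb and 6 kb upstream, the former not for WT and the upstream deletion in control, and the upstream deletion line lies at or under the others at most partners, while the window change of -0.18 did not pass the threshold.

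Runx1 had few listed pairs, all but 1 of them within its window of 236 kb. It spans 92601466 to 92826074 on chromosome 16. It had 6 and 6 pairs in WT cells, 5 and 10 in intron-deletion cells, and 11 and 6 in upstream-deletion cells (control, then IL-2). The 5 shared loops joined the distal start, given above, and the next bin into the gene with bins 5 to 7 kb inside the gene. The strongest, from 92819001 to the start bin 92826001, had 51, 43, 35, 40, 53 and 42 contacts in the order WT, intron deletion, upstream deletion, each as control and IL-2. The bin of the proximal start, 129 kb away, was joined to the distal start bin in WT control (23 contacts) and to the bin 7 kb inside the gene in intron deletion IL-2 (20), upstream deletion control (28) and upstream deletion IL-2 (23). In upstream deletion control it was also joined to the next bin, 6 kb inside the gene (20).

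Scaled contacts of Runx1 were 118.5 and 94.36 CPM in WT cells, 130.1 and 122 in intron-deletion cells, and 156.7 and 124.5 in upstream-deletion cells (control, then IL-2). They were lower with IL-2 than without in each genotype, and higher in both deletions than in WT under each treatment. No change passed the threshold: 0.26 (SE 0.12, adjusted p 0.156) in the intron deletion, 0.40 (SE 0.12, adjusted p 0.182, unadjusted p 0.00482) in the upstream deletion, and -0.25 (SE 0.10, adjusted p 0.147, unadjusted p 0.0211) with IL-2. All 5 loops lay below 0 with IL-2 and above 0 in the upstream deletion, and in 2 of 5 both upstream deletion libraries were above both WT libraries (16.4% of all shared loops). Coverage of its 5 shared bins was 227.7 and 185.5 CPM of coverage in WT cells, 238.1 and 230.7 in intron-deletion cells, and 277 and 226 in upstream-deletion cells. In coverage DESeq2 called the fall with IL-2 (adjusted p 0.0244) and the rise in the upstream deletion (adjusted p 0.038), which edgeR did not (-0.21, adjusted p 0.0695, and 0.28, adjusted p 0.11).

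The contact changes of Runx1 passed the threshold without the intron deletion control library (IL-2 -0.31, adjusted p 0.0319; intron deletion 0.37, adjusted p 0.0468; upstream deletion 0.39, adjusted p 0.029) and, for IL-2 and the upstream deletion, without the intron deletion IL-2 library (-0.33, adjusted p 0.0331; 0.40, adjusted p 0.041). Without that IL-2 library the intron deletion change was 0.13 (adjusted p 0.641). Of all 3522 windows, 842, 1030 and 251 passed in these comparisons without the control library, and 774 and 194 with IL-2 and in the upstream deletion without the IL-2 library. Over all alternatives the adjusted p ran from 0.0319 to 0.668 for IL-2, 0.0468 to 0.641 for the intron deletion and 0.029 to 0.999 for the upstream deletion. A fit without 1 library has 1 residual degree of freedom and leaves 1 genotype with 1 library. Its adjusted p, here and for the other genes and coverage, is not a measure of the strength of evidence. The IL-2 ratio of scaled contacts was 0.796 in WT, 0.794 in the upstream deletion and 0.938 in the intron deletion, and the difference of the intron deletion from the other genotypes did not pass (0.24, SE 0.17, adjusted p 0.613).

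Zeb2 was represented by contacts of an internal start. It spans 44983512 to 45117442 on chromosome 2, and 7 of its 12 pairs had an anchor in the bin 45110001 to 45111000, which holds its annotated start at 45110277, 7 kb inside the gene. Pairs listed were 6 and 9 in WT cells, 1 and 2 in intron-deletion cells, and 3 and 7 in upstream-deletion cells (control, then IL-2). Its 1 shared loop, 184 kb long, joined that bin with 44926001 in Gtdc1 and had 37, 46, 25, 28, 33 and 23 contacts in the order WT, intron deletion, upstream deletion, each as control and IL-2. In scaled contacts these were 25.21 and 26.63, 23.57 and 18.77, and 27.08 and 17.56 CPM. The intron deletion libraries were below both WT libraries, and the upstream deletion libraries lay above and below all others. No contact change passed (-0.31, SE 0.23, adjusted p 0.402, in the intron deletion; -0.23, SE 0.22, adjusted p 0.731, in the upstream deletion; -0.24, SE 0.19, adjusted p 0.518, with IL-2). With 1 loop these values depended on single libraries: the intron deletion change was -0.02 without WT IL-2 and -0.57 without WT control, and the IL-2 change was -0.48 without either WT library and -0.08 without either upstream deletion library, with no adjusted p below 0.304.

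Coverage of the same Zeb2 bin passed the threshold in the intron deletion, where 40.2% of all 4371 coverage windows passed and 19.4% passed as lower. It was 134.9 and 140.7 CPM of coverage in WT cells, 104.3 and 95.83 in intron-deletion cells, and 148.9 and 146.5 in upstream-deletion cells. Both intron deletion libraries were below the other 4. The log2 change was -0.46 (SE 0.06, 0.725-fold, edgeR adjusted p 0.00364). Over 10 alternatives, 6 of them fits without 1 library, it ran from -0.53 to -0.39. The bin at the other end of the loop, in Gtdc1, had 170 and 188, 168.2 and 165.4, and 189.4 and 214.9 CPM of coverage in the same order.

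Id2, the inhibitor of E proteins, had its contacts with a site far upstream. It spans 25093799 to 25096092 on chromosome 12. It had 10 and 16 listed pairs in WT cells, 1 and 6 in intron-deletion cells, and 5 and 12 in upstream-deletion cells (control, then IL-2), none of them in all 6 libraries. Of its 19 pairs, 14 joined bins from 2 kb inside the gene to 4 kb upstream of its start with bins at 25188001 to 25191001, 92 to 95 kb upstream, where the annotation holds the genes Gm36287 and Gm36496 and no protein-coding gene. In WT IL-2 the strongest of these, from 25098001 to 25189001, had 44 contacts, against 24 in WT control, 29 in intron deletion IL-2 and 36 in upstream deletion IL-2, and it was not listed in the other 2 libraries. The start bin itself was not listed.

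Only coverage could be tested for Id2, in 1 bin, 25095001 to 25096000. It was 92.3 and 85.48 CPM of coverage in WT cells, 73.22 and 77.93 in intron-deletion cells, and 105.6 and 101.6 in upstream-deletion cells (control, then IL-2). The genotypes did not overlap, and the share of all windows for which this holds was not counted. The log2 change in the intron deletion was -0.23 (SE 0.06, edgeR adjusted p 0.0354), where 40.2% of all coverage windows passed and 19.4% passed as lower. The call was lost without WT control (-0.17) or WT IL-2 (-0.30). Over 10 alternatives, 6 of them fits without 1 library, the log2 change ran from -0.32 to -0.15.

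Over the 5 genes with coverage, 3 (Tbx21, Zeb2 and Id2) were lower in the intron deletion, where 40.2% of 4371 windows passed the threshold and 19.4% passed as lower. Runx1 (0.19, adjusted p 0.0798) and Runx3 (-0.04, adjusted p 0.507) did not pass. In the upstream deletion and with IL-2 edgeR called 0 of the 5 and 0% of all windows, although 1056 and 1808 of the 4371 windows had an unadjusted p under 0.05 and DESeq2 called 194 and 833. Leaving out the intron deletion control library brought 5 of 5 genes past the threshold in the upstream deletion, from Runx1 (0.28, adjusted p 7.74e-17) and Id2 (0.22, adjusted p 1.04e-06) to Runx3 (-0.10, adjusted p 0.00459), Tbx21 (0.09, adjusted p 0.0156) and Zeb2 (0.10, adjusted p 0.0178), and Runx1 (-0.29, adjusted p 8.86e-19) and Tbx21 (-0.16, adjusted p 1.6e-06) with IL-2. In that fit 2030 of the 4371 windows passed in the upstream deletion and 2756 with IL-2, so the gain was not limited to these genes. Leaving out the intron deletion IL-2 library gave the same 7 calls, among 2031 and 2764 windows. The intron deletion coverage change of Runx1 ranged from 0.066 without the intron deletion IL-2 library (adjusted p 0.185) and 0.13 without WT IL-2 (adjusted p 0.472) to 0.31 without the intron deletion control library (adjusted p 7.62e-13, among 2908 windows past the threshold), and it also passed without either upstream deletion library (adjusted p 0.0466 and 0.047). Among the 4 genes with contacts, 0 passed with IL-2 and 0 in the upstream deletion by edgeR or DESeq2 (which gave no adjusted p for Runx1 and Zeb2 with IL-2), with Runx1 under an unadjusted p of 0.05 in both and Runx3 in the upstream deletion. In the test of whether the IL-2 response of the upstream deletion differed, edgeR called 0% of windows (85 at an unadjusted p under 0.05).

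**Figure D5:**
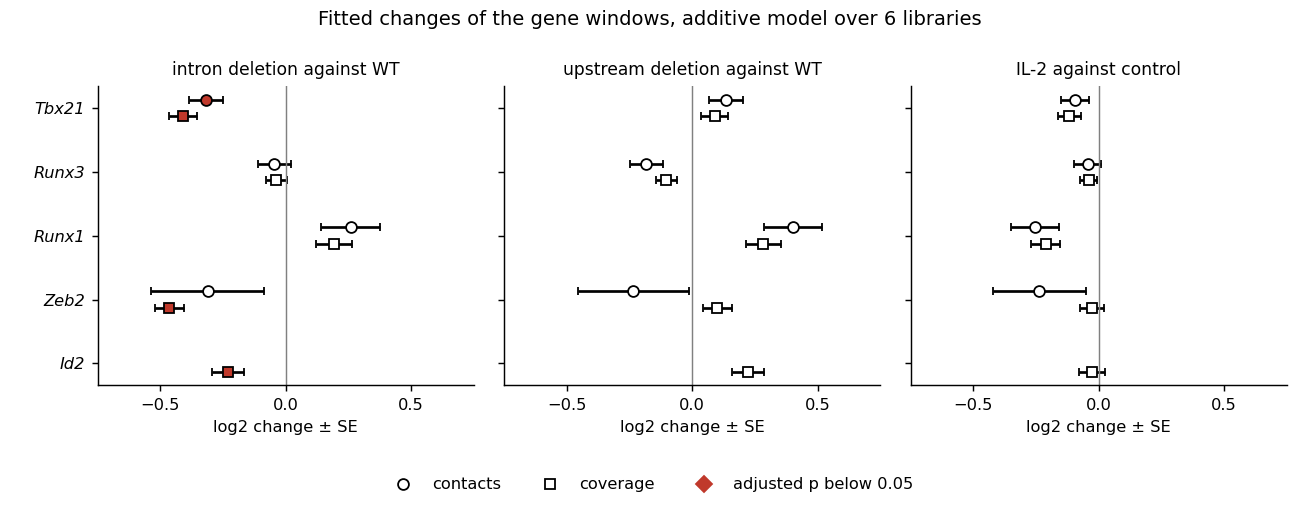
Fitted log2 changes (points) with standard errors (bars) of the measured genes in contacts (circles) and coverage (squares), for the intron deletion against WT, the upstream deletion against WT and IL-2 against control; filled symbols have an adjusted p below 0.05. Filled symbols occur in the left panel for Tbx21 (-0.32 in contacts and -0.41 in coverage), Zeb2 (-0.46 in coverage) and Id2 (-0.23 in coverage).

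Nfil3 had no shared loop, and its pairs were rare in the intron deletion. It spans 52967209 to 52982878 on chromosome 13. It had 9 listed pairs in WT control, 17 in WT IL-2, 0 in intron deletion control, 2 in intron deletion IL-2, 11 in upstream deletion control and 20 in upstream deletion IL-2. Of its 28 pairs, 18 lay within the window and 6 reached a bin in Auh, 66 kb downstream of its start. The pair listed most often, from 52977001 to 52982001, had 36, 44, 24, 36 and 43 contacts in WT control, WT IL-2, intron deletion IL-2, upstream deletion control and upstream deletion IL-2 and was not listed in intron deletion control. The start bin was not an anchor, while the bins on either side of it were.

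Listing was compared within a treatment against all pairs between the smallest and largest WT count of the gene's pairs. The spread of counts within that range was not matched. The Nfil3 pairs of WT control had a median of 22 contacts in a range of 20 to 36. Of all WT control pairs with 20 to 27 contacts, the range of Id2, 19.8% were listed in intron deletion control. Of the 9 Nfil3 pairs of WT control, 0 were listed in the intron deletion (0%, exact 95% binomial interval 0% to 33.6%), against 29.5% of all pairs of that range, and 6 were listed in the upstream deletion (66.7%, interval 29.9% to 92.5%), against 52.1%. Of the 17 pairs of WT IL-2, 2 were listed in the intron deletion (11.8%, interval 1.46% to 36.4%), against 50.8%, and 11 in the upstream deletion (64.7%, interval 38.3% to 85.8%), against 47.8%. The intron deletion interval under IL-2 thus lies below the level of all pairs of that range. Pairs that share bins are not independent, and the intervals cover counting error only. Over all pairs without a limit on range, 47.1% of WT control pairs were listed in intron deletion control and 66.2% in upstream deletion control, and 60.9% and 59.3% of WT IL-2 pairs in the IL-2 libraries.

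By the same count, 45 of the 136 Tbx21 pairs of WT control were listed in the intron deletion (33.1%, interval 25.3% to 41.7%, against 46% of pairs of that range) and 81 of the 171 of WT IL-2 (47.4%, interval 39.7% to 55.1%, against 60.1%). In the upstream deletion they were 98 of 136 (72.1%, interval 63.7% to 79.4%, against 65.5%) and 98 of 171 (57.3%, interval 49.5% to 64.8%, against 58.4%). Of the Runx3 pairs of WT, 34 of 79 in control were listed in the upstream deletion (43%, interval 31.9% to 54.7%, below the 64.4% of pairs of that range) and 47 of 98 under IL-2 (48%, interval 37.8% to 58.3%, which includes the 57.9% of pairs of that range). In the intron deletion Runx3 had 32 of 79 (40.5%, against 44.3%) and 67 of 98 (68.4%, against 59.6%). For Id2 the counts in the intron deletion were 1 of 10 (10%, against 19.8%) and 6 of 16 (37.5%, against 50.8%), too few to separate from all pairs.

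Eomes and Prdm1 were close to the listing limit. Eomes, on chromosome 9, had 2 pairs in WT IL-2, from the bin 1 kb inside the gene to bins 10 and 11 kb from its start with 24 and 25 contacts, and 1 pair of 83 kb in intron deletion IL-2 with 22. Prdm1, on chromosome 10, had 1 pair of 64 kb in WT IL-2 with 20 contacts. At this depth no comparison was possible for either gene, and unlisted pairs say nothing of their activity.

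Lists of related genes were read beside these values. Of 12 naive and memory factors, 9 had a measured window. In the intron deletion 4 of the 9 rose and none fell by edgeR, where 9.51% of all windows passed as higher and 8.18% as lower: Tcf7 (log2 change 0.82, adjusted p 0.00175), Ikzf1 (0.42, adjusted p 0.00127), Bach2 (0.24, adjusted p 0.0383) and Lef1 (0.23, adjusted p 0.0261). The median of the 9 was 0.238, against -0.00554 for all windows. Tcf7, which encodes TCF-1, the factor that maintains naive and memory cells, had 414.2 and 270.9 CPM of contacts in WT cells, 579.8 and 594 in intron-deletion cells, and 531.7 and 340.6 in upstream-deletion cells (control, then IL-2).

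Of 17 other effector-promoting factors, 12 were measured, and 4 fell in the intron deletion with none rising, against 8.18% of all windows passing as lower: Rbpj (-0.56, adjusted p 0.00128), Bhlhe40 (-0.52, adjusted p 0.00074), Zbtb32 (-0.41, adjusted p 0.0219) and Gfi1 (-0.30, adjusted p 0.0116), with a median of -0.0769 over the 12. Bhlhe40 had 605 and 595.7 CPM of contacts in WT cells, 426.1 and 411.6 in intron-deletion cells, and 672.8 and 717.8 in upstream-deletion cells. Of 21 effector target genes, 6 were measured and 4 fell, against the same 8.18%: Il12rb2 (-0.93, adjusted p 0.00567), a receptor chain for IL-12, Gzmb (-0.39, adjusted p 0.00296), granzyme B, Il2rb (-0.35, adjusted p 0.00414), a signalling chain of the IL-2 receptor, and Nkg7 (-0.34, adjusted p 0.00997, a window with the same loops as Cldnd2 and Lim2), with a median of -0.346. Gzmb and Il2rb also rose with IL-2 (0.26, adjusted p 0.0358, and 0.27, adjusted p 0.0296), where 1.9% of all windows passed as higher. Of the E proteins and other Id proteins 3 of 5 were measured and of Runx2 and Cbfb 1, with none past the threshold. No gene of these lists passed in the upstream deletion, where 0.199% of all windows passed. The median there was 0.163 for the naive and memory factors, 0.0855 for the other effector factors and 0.0445 for the target genes. It was -0.162 for the E and Id proteins, 0.182 for the 1 window of Runx2 and Cbfb, and 0.00798 for all windows. In coverage, 8 of the 12 other effector factors fell in the intron deletion (median -0.238), 6 of the 9 naive and memory factors rose and 1, Satb1 (-0.26), fell (median 0.24), 5 of the 6 target genes fell (median -0.319), and Runx2 fell by 0.21 on the log2 scale (adjusted p 0.0311), where 19.4% of all coverage windows passed as lower and 20.7% as higher. The lists were chosen with results of these data known, so their directions are no independent evidence.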

How the data were processed

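H3K27ac HiChIP bin-pair lists of 6 libraries were used, and 19 other samples of the 25 in the series were not analysed here. The deposited values were raw contact counts between 1 kb bins and a read count (coverage) for each bin, made by the authors with CASAVA, Bowtie2 2.2.6 and HiC-Pro on mm10, per the submitters' processing notes, and the sources used here do not give the rule for listing a pair. No listed pair had under 20 contacts or spanned under 5 kb, which was read from the values. An unlisted pair is below the listing limit and its count is unknown.

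Genes came from RefSeq tables of GRCm38.p6. Contacts of loops listed in all 6 libraries were summed by gene window (3522 distinct windows), and coverage by shared bins (4371). Counts were tested with edgeR 4.0.16 (R 4.3.3; TMM, quasi-likelihood, genotype plus IL-2, 2 residual degrees of freedom) over all features, with Benjamini-Hochberg adjustment and a threshold of 0.05. The IL-2 response was compared between genotypes with an interaction term, which leaves 1 residual degree of freedom. DESeq2 1.42.0, other scalings, windows, filters and left-out libraries were alternatives. Named were all 8 genes, for each the strongest and longest shared loop, up to 3 loops with the largest change past the threshold, the bin with the most partners in WT control and the start bins, for a gene past the threshold the 2 windows most like it, and up to 4 genes of each list and comparison past the threshold. Other loops and pairs named were picked after their values were seen. Members and lists were chosen with earlier results of these data known. On simulated counts for the 3522 windows with 200 changed by 0.5 on the log2 scale, 142 were recovered with 8 false calls for IL-2, and 123 with 2 false calls for the intron deletion. All simulated windows had 1 dispersion (0.00242), additive changes and no other difference between genotypes. The simulation thus met the model and does not give the rate of false calls in the real libraries. Listed contacts were 1314137 to 3596995 per library, and binomial intervals cover counting error only. One B cell marker is not reported here.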

Additional observations from a re-analysis of the deposited data

How the results depend on the processing

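Calls over all features moved with the settings, and 1 library per genotype and treatment limits every test. No paired analysis was possible because the labels give no replicate numbers; the names of all 6 files carry the mark rep2, and no other set was analysed here. The genotype term of the fit sets each IL-2 library against the control of its genotype. With IL-2, 113 gene windows passed in contacts, against 57 by DESeq2, 67 without extension, 217 with 20 kb, 52 with at least 3 loops, 0 with unlisted pairs at 0, 20 with them at 19 and 0 without a genotype term, and 0 to 842 with 1 library left out. In the intron deletion 623 passed, against 231 by DESeq2 and 311 with unlisted pairs at 0, and 110 to 1030 with 1 library left out. In the upstream deletion 7 passed, against 16 with RLE scaling, 2 by DESeq2, 0 and 4 with unlisted pairs at 0 and 19, and 0 to 251. In coverage 0 passed with IL-2 (DESeq2 833, left-out libraries 0 to 2764), 1756 in the intron deletion (944 with at least 3 bins, 533 to 2908) and 0 in the upstream deletion (DESeq2 194, without extension 1, left-out libraries 0 to 2031). Of single loops 924 passed with IL-2 (DESeq2 0, at least 30 contacts 604, left-out libraries 46 to 1825), 3166 in the intron deletion (119, 1608, 494 to 3285) and 22 in the upstream deletion (2, 8, 3 to 86). The IL-2 response differed in the intron deletion for 97 windows, against 215 with RLE scaling and 829 with unlisted pairs at 19; it could not be fitted with a library left out, which leaves no residual degree of freedom.

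Of 352 values for single genes and loops, 294 kept direction and side of the threshold, 27 came to pass it, 15 no longer passed and 16 changed sign. None of the sign changes was in a called value. With unlisted pairs at 0, which moved the median of all windows to 0.16, the IL-2 contact changes of Runx3 and Zeb2 became 0.11 and 0.48, and with them at 19 that of Runx3 became 0.028. The upstream contact change of Zeb2 became 0.017 and 0.089 under these settings and ran from -0.53 to 0.041 with 1 library left out. With 1 library left out, the IL-2 coverage change ran from -0.084 to 0.015 for Id2 and from -0.072 to 0.023 for Zeb2. The intron deletion coverage change of Runx3 became 0.034 without extension and 0.013 with 20 kb. With unlisted pairs at 19, the difference in IL-2 response became 0.088 for Runx3 in the intron deletion, and -0.048 for Runx3 and 0.14 for Zeb2 in the upstream deletion. The cause of these changes was not tested.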
